A study of Homo sapiens with 12 samples.

Results

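The metallothioneins and their zinc-sensing transcription factor were followed in HT1080 cells, an established human fibrosarcoma line. The genes were chosen by name: MT2A, MT1E, MT1F, MT1X and MT1G, which encode metallothioneins, and MTF1, which encodes metal regulatory transcription factor 1. Of these 6 genes, 5 were listed in both deposited tables. The table of the PMA experiment lists 16101 genes and that of the ConA experiment 15991, with 15459 genes in both. MT1G was not listed in either table, and neither were the 16 other human metallothionein genes and pseudogenes looked for. Every listed gene reached about 10 estimated reads or more in at least 1 library of its table. For a gene not listed, a level below that and absence from the annotation cannot be told apart.

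All cells were wild type and spent 3 days in biotin depleted medium before a change to biotin depleted medium with 1% serum, in which both treatments were given. PMA (phorbol 12-myristate 13-acetate, an activator of protein kinase C) was used at 40 nM and ConA (concanavalin A, a lectin that binds cell-surface glycans) at 40 µg/mL, each for 24 h. There were 3 libraries of polyadenylated RNA in each of 4 groups: PMA, the untreated PMA controls, ConA and the untreated ConA controls. A single tumor cell line was used, and nothing in the labels says whether the 3 libraries of a group came from separate cultures, so that p-values measure the spread between these libraries, which may be technical. Values are normalized counts, which are read counts per gene divided by a factor for each library. The tables were normalized separately, so a treatment was compared only with the controls of its own table. Each library held about 33642786 to 45582123 estimated reads, with a median of 40975717. Between replicate libraries the squared difference of a gene was on average 3.827 to 18.94 times its sampling variance, where counting noise alone gives 1. All 9 mesenchymal markers chosen for HT1080 cells were listed in both tables, with sums of 605622 to 630674 normalized counts in the PMA controls and 620888 to 649508 with PMA, and of 760280 to 837248 in the ConA controls and 583258 to 631134 with ConA, where the groups did not overlap. In bulk RNA, fewer cells that express a gene and less of its RNA per cell cannot be told apart.

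Metallothioneins are small, cysteine-rich proteins that bind zinc and copper and can also bind cadmium and other toxic metals. They buffer the free zinc of the cell and react with oxidants. MTF-1, the product of MTF1, binds DNA at metal response elements (MREs) when the zinc level is high, and it switches on metallothionein genes and the zinc exporter gene SLC30A1. MT2A is widely expressed, and its promoter has long been used to study the response to metals, glucocorticoids and phorbol esters. AP-1, the dimer of FOS and JUN proteins through which phorbol esters act on many genes, was first described in part at the promoter of this gene.

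Upstream sequence was available for MT2A, MT1X and MTF1. It is shown for these genes, and for SLC30A1 as the other well-known MTF-1 target, since PMA and ConA are compared below at exactly these genes. Each run is the 250 bases before the RefSeq transcription start on GRCh38.p14, written 5′ to 3′ on the strand of the gene. The regions are chr16:56608334-56608583 on the plus strand for MT2A, chr16:56682220-56682469 on the plus strand for MT1X, chr1:37859593-37859842 on the minus strand for MTF1 and chr1:211579162-211579411 on the minus strand for SLC30A1. Capitals mark the MRE cores TGCACNC and TGCGCNC, searched on both strands, and the AP-1 element TGACTCA, which reads the same on both strands apart from its central base and was searched on both.
MT2A: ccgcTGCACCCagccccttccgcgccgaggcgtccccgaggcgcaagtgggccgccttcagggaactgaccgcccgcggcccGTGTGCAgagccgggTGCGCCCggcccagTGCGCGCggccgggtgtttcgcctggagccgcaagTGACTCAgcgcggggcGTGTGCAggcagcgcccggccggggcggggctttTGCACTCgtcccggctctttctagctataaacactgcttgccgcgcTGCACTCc
MT1X: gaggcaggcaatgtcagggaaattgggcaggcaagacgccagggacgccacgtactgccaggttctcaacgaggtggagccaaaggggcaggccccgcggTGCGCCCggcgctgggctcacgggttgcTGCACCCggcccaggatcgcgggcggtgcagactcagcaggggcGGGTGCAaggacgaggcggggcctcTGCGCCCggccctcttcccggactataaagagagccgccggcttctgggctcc
MTF1: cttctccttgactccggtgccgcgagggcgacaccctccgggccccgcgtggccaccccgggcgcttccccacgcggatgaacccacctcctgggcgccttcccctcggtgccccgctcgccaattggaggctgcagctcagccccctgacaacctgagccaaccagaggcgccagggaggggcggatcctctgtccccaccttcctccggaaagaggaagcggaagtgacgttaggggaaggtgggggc
SLC30A1: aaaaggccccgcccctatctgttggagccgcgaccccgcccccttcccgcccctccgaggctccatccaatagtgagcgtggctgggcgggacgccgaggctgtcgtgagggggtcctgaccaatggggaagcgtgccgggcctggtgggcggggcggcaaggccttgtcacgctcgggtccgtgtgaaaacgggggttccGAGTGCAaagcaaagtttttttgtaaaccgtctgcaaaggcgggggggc

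The MT2A sequence held 7 MRE cores and 1 AP-1 element. Its cores lay between 246 and 2 bases before the start, and its AP-1 element, at -104 to -98, overlapped none of them. The MT1X sequence held 4 MRE cores, between 150 and 47 bases before the start, and no AP-1 element. In the SLC30A1 sequence there was 1 core on the other strand at -49 to -43, and the MTF1 sequence held neither motif. Across 35116 RefSeq promoters of the same length, from 27305 genes, 24.8% held at least 1 MRE core, 0.37% held at least 4, and 11 promoters (0.0313%) held at least 7. The AP-1 element was found in 4.2%. These matches describe the letters of the sequence only and do not show that a factor was bound in these cells.

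**Figure D1:**
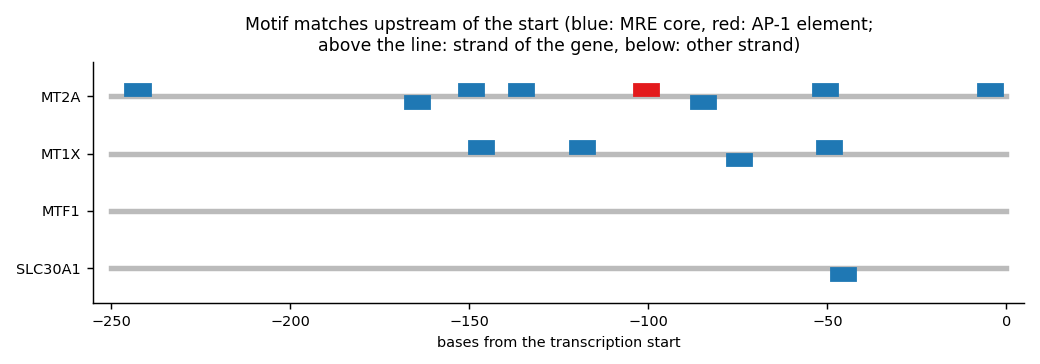
Positions of motif matches in the 250 bases before the transcription start of MT2A, MT1X, MTF1 and SLC30A1, with the distance from the start in bases on the x axis. MRE cores are blue and the AP-1 element is red, drawn above the line on the strand of the gene and below it on the other strand. MT2A carries 7 cores and the only AP-1 element of the 4 sequences, MT1X 4 cores, SLC30A1 1 core and MTF1 none.

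MT2A was by far the most abundant metallothionein transcript, and it rose with PMA. In the PMA controls it was measured at 13445, 14412 and 13635 normalized counts, and with PMA at 39309, 40400 and 42564. Every treated library lay above every control. The mean went from 13830 ± 512 to 40758 ± 1657 (SD, n = 3), 2.95 times the control mean (log2 fold change 1.56, standard error 0.04, 95% interval 1.46 to 1.66, adjusted p = 1.19e-10 from limma). Calls needed a 2-fold difference in either direction, 1 on the log2 scale, together with an adjusted p no higher than 0.0001. MT2A was the only 1 of the 5 genes tested that passed both with PMA. Among all 15153 genes tested with PMA, 8.65% were called.

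With ConA the difference at MT2A was smaller and was not called. The ConA controls gave 14101, 14994 and 14489 normalized counts, and the ConA libraries 27504, 25762 and 23984. The groups did not overlap. The mean of 25750 ± 1760 with ConA was 1.77 times that of the controls, 14528 ± 447 (SD, n = 3), and limma gave a log2 fold change of 0.82 with a standard error of 0.06 (adjusted p = 2.5e-08). The limma test passed the limit on the adjusted p, while the fold stayed under the 2-fold threshold, and the 95% interval of 0.70 to 0.95 ended below it. The difference between the treatments at MT2A, the log2 fold change with PMA minus that with ConA, was 0.74 (95% interval 0.58 to 0.89, adjusted p = 1.95e-07 from limma). With quantile normalization it was 0.43, below that interval (adjusted p = 5.16e-05 from limma). Here and for the genes below, treatment and experiment cannot be told apart in such a difference.

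MT1X, an MT1 isoform gene that responds to metals, had values above the controls in every library of both treatments, at less than 2-fold. Its controls were at 414, 396 and 365 normalized counts in the PMA experiment, and the PMA libraries at 637, 618 and 648. In the ConA experiment the controls were at 341, 338 and 324 and the ConA libraries at 526, 446 and 456. The treated mean was 1.62 times the control mean with PMA (log2 fold change 0.70, standard error 0.07, adjusted p = 4.23e-06 from limma) and 1.42 times with ConA (log2 fold change 0.51, standard error 0.09, adjusted p = 0.000169 from limma). The difference between the treatments was 0.19, with a 95% interval of -0.04 to 0.42 (adjusted p = 0.141 from limma), so an equal response and a PMA excess of up to 0.42 both lie within the interval. It was 0.32 with quantile normalization (adjusted p = 0.0229 from limma). MT1X also shares sequence with another gene model: 55.8% of the stretches of 50 bases in its longest coding transcript occur in a transcript of AC026461.1, which was annotated on the same strand. How reads there were assigned between the 2 models is not given in the sources used here.

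MT1E, another MT1 isoform gene, had opposite signs with the 2 treatments. The PMA controls gave 491, 441 and 388 normalized counts and the PMA libraries 622, 719 and 667, so that all treated values lay above the controls. With ConA the libraries gave 528, 525 and 412 normalized counts and lay below the controls, at 575, 591 and 553. The ratio of means was 1.52 with PMA (log2 fold change 0.61, standard error 0.09, adjusted p = 0.000114 from limma) and 0.851 with ConA (log2 fold change -0.24, standard error 0.10, adjusted p = 0.0411 from limma). Neither was called. The value with ConA rested in part on the lowest ConA library, without which it was -0.12 (adjusted p = 0.249 from limma), and it ran from -0.35 to -0.12 over the alternatives tried. The difference between the treatments was 0.85 (standard error 0.14, 95% interval 0.55 to 1.15, adjusted p = 5.37e-05 from limma), within the limit on the adjusted p but under the 2-fold threshold.

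MT1F, a further MT1 isoform gene, was close to the lower end of what the libraries could measure. It was counted at 13.8, 16.1 and 11.7 in the PMA controls and at 6.97, 11.4 and 15.6 with PMA, on the scale of normalized counts, and these groups overlapped (log2 fold change -0.33, standard error 0.37, adjusted p = 0.461 from limma). The 95% interval ran from -1.14 to 0.49, so a 2-fold difference downward was within it. In the ConA controls MT1F was at 8.34, 9 and 4.01 normalized counts and with ConA at 14, 12.5 and 9.88. The lowest ConA library lay just above the highest control, but the mean over the 6 libraries was 9.63, under the minimum of 10 for the limma test of this table. The ratio of means was 1.71 and an exact two-sided permutation test gave p = 0.1, the smallest that 3 libraries against 3 allow. These values rest on 4 to 14 estimated reads per library in the ConA experiment and 6 to 18 in the PMA experiment, so smaller differences were not detectable at this depth. The difference between the treatments at MT1F was -1.07 (95% interval -2.24 to 0.09, adjusted p = 0.101 from limma). No difference and one of more than 2-fold both lie within that interval.

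MTF1 itself differed more with ConA than with PMA. Its controls in the ConA experiment were at 1789, 1634 and 1821 normalized counts, and the ConA libraries at 2646, 2819 and 2902. All ConA libraries lay above all controls, with a ratio of means of 1.6 (log2 fold change 0.67, standard error 0.06, adjusted p = 3.39e-07 from limma), which was under the 2-fold threshold. With PMA the libraries were at 2059, 1988 and 1905 against 1722, 1660 and 1944 in the controls. The lowest PMA value was below the highest control, so the groups overlapped (log2 fold change 0.16, 95% interval 0.03 to 0.30, adjusted p = 0.0347 from limma). This value was 0.07 with quantile normalization (adjusted p = 0.287 from limma). The difference between the treatments was -0.51 (95% interval -0.70 to -0.32, adjusted p = 8.99e-05 from limma). MT2A and MTF1 ranked the treatments in opposite order.

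**Figure D2:**
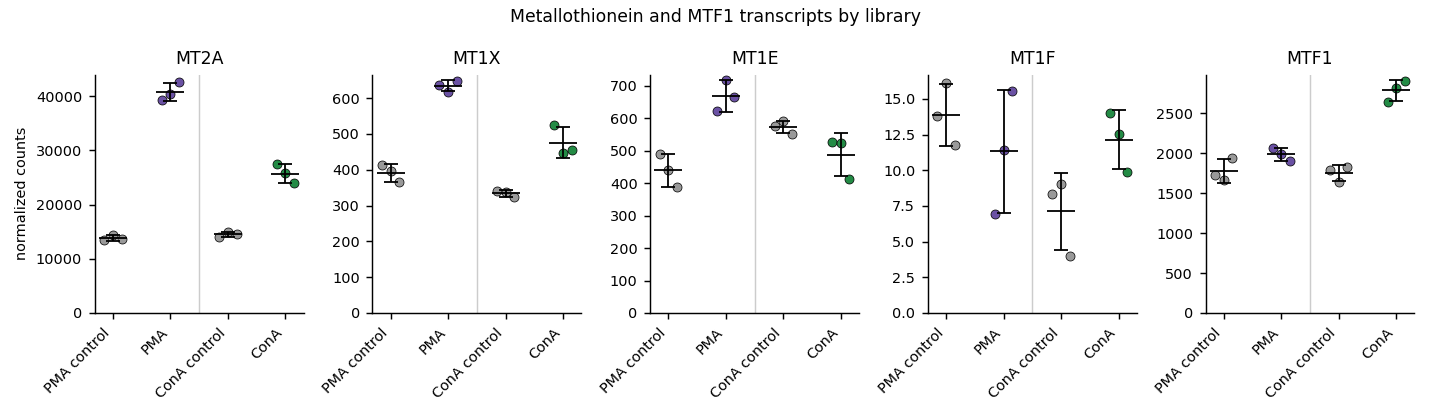
Normalized counts of MT2A, MT1X, MT1E, MT1F and MTF1 in the 12 libraries, 1 point per library, with a horizontal bar for the mean of 3 libraries and error bars for the SD; each panel has its own linear axis from 0, and a grey line separates the 2 tables, which were normalized apart. PMA libraries of MT2A sit between 39309 and 42564, above the controls at 13445 to 14412, while MT1F values overlap with PMA and MTF1 stands apart from its controls with ConA and not with PMA.

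Read over the 5 listed genes, the groups did not overlap for MT2A, MT1E and MT1X in both experiments and for MTF1 and, by a narrow margin and outside the limma test, MT1F with ConA. Non-overlap was common in these data, at 67.9% of all genes tested with PMA and 69.3% with ConA. An adjusted p of at most 0.0001 at any fold was reached by MT2A and MT1X with PMA, where 25.8% of all genes reached it, and by MT2A and MTF1 with ConA, where 30.5% did. With ConA, 0 of the 4 genes tested with limma were called, against 8.71% of all 15139 genes, while all 4 had an unadjusted p under 0.05, as did 68.2% of all genes with ConA and 66.7% with PMA. For the difference between the treatments, 0 of 5 were called with limma against 10.6% of 15030 genes, with 3 at an unadjusted p under 0.05, which 64.7% of all genes reached. MT2A, MT1E and MTF1 were past the limit on the adjusted p of that difference at any fold, as were 27.0% of all genes. The median log2 fold change of the genes tested was 0.61 with PMA and 0.59 with ConA, beside 0.0029 and -0.0022 over all genes. These medians cover different sets, 5 genes with PMA and 4 with ConA, where MT1F was not tested. Both sets include MTF1, so the medians do not compare the metallothionein responses.

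**Figure D3:**
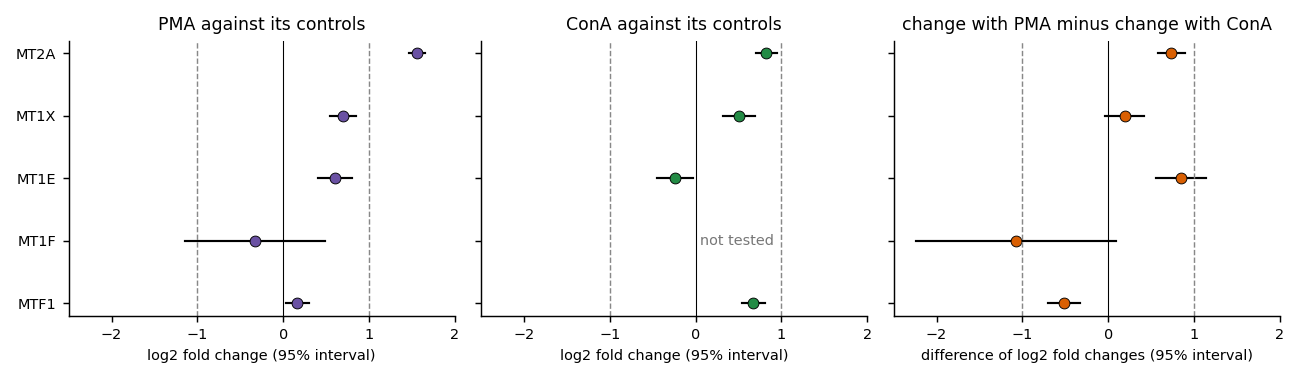
Log2 fold changes against the controls of the same table for PMA and ConA, and the PMA value minus the ConA value, with 95% intervals from limma on 3 libraries per group; dashed lines mark the 2-fold threshold. Only MT2A with PMA, at 1.56, lies beyond the threshold with its whole interval, and MT1F was not tested with ConA.

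MT2A made up most of the metallothionein reads, and its share of them was larger in the treated libraries. The summed normalized counts of the 4 listed metallothioneins averaged 14676 ± 510 in the PMA controls and 42073 ± 1683 with PMA (SD, n = 3), a ratio of 2.87. In the ConA experiment they averaged 15442 ± 458 in the controls and 26726 ± 1855 with ConA, a ratio of 1.73. The share of MT2A in this sum was 93.6% to 94.7% in the PMA controls and 96.8% to 97% with PMA. In the ConA experiment it was 93.8% to 94.3% without and 96.3% to 96.5% with the lectin. None of these groups overlapped, and for each of these sums and shares the exact two-sided permutation test gave p = 0.1, the smallest it allows.

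Ratios within a library do not depend on the factor of that library, and they separated the MT1 genes. Per MT1E count there were 31.7 ± 3.94 MT2A counts in the PMA controls and 61.1 ± 4.22 with PMA (SD, n = 3). The same ratio was 25.4 ± 0.844 for the ConA controls and 53.2 ± 4.68 for ConA. Per MT1X count there were 35.4 ± 2.59 and 64.3 ± 2.24 MT2A counts with PMA, and 43.5 ± 1.85 and 54.2 ± 3.03 with ConA. Both ratios were higher in every treated library than in every control of its table (exact permutation p = 0.1 each, the smallest possible). The ratio of MT1X to MT1E overlapped in the PMA experiment, at 0.894 ± 0.0479 in the controls and 0.952 ± 0.084 with PMA (exact permutation p = 0.4, two-sided), and it did not overlap in the ConA experiment, at 0.583 ± 0.0104 and 0.985 ± 0.129 (exact permutation p = 0.1, the smallest possible). The summed counts of MT1E, MT1F and MT1X were 845 ± 77.2 and 1315 ± 42.8 in the PMA experiment, and 914 ± 30.2 and 976 ± 95.4 in the ConA experiment, where they overlapped (exact permutation p = 0.5).

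**Figure D4:**
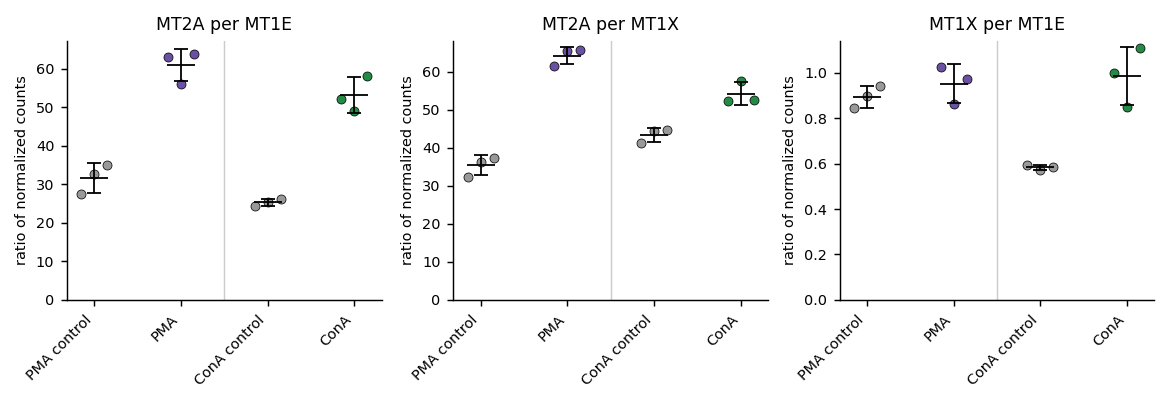
Ratios of normalized counts within each library for MT2A per MT1E, MT2A per MT1X and MT1X per MT1E, 1 point per library, with the mean as a bar and the SD as error bars (n = 3); axes start at 0 and a grey line separates the tables. MT2A per MT1E averages 31.7 and 61.1 without and with PMA and 25.4 and 53.2 without and with ConA, while MT1X per MT1E overlaps between PMA and its controls.

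To set levels of different genes beside each other, normalized counts were divided by the length of the longest coding transcript of the gene. On this scale MT2A stood at 17600 counts per kilobase in the PMA controls and 51850 with PMA. It stood at 18480 in the ConA controls and at 32760 after ConA. Among the 13927 genes of the PMA table with a length it ranked 103 in the controls and 30 with PMA, and among 13862 genes in that of ConA 118 and 47. MT1X (728 counts per kilobase) and MT1E (603) followed in the PMA controls, then MTF1 (223) and MT1F (20.1). In the ConA controls MT1E stood at 786 and MT1X at 621. Which of MT1E and MT1X is higher turned on the transcript chosen, since with the shortest coding transcript MT1E was at 1325 and MT1X at 870 counts per kilobase in the PMA controls. MT2A was far above the others and MT1F far below with either length.

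The libraries varied with transcript length, which bears on genes as short as these. The longest coding transcripts of the 4 listed metallothioneins run from 538 to 786 bases, and that of MTF1 to 7972 bases. Over the 12 libraries, each measured from its group mean, the difference between genes with transcripts under 1000 bases and genes over 6000 bases correlated with MT2A at r = 0.723, with MT1X at 0.671, with MT1E at 0.59 and with MTF1 at -0.913. Deviations of MT2A and MTF1 correlated at r = -0.709 and those of MT1E and MT1X at 0.533 over the same 12 libraries, which share their depth factor and this length trend. Between groups, the median log2 fold change of short-transcript genes was -0.05 with PMA and -0.41 with ConA, and that of long-transcript genes 0.07 and 0.12. MT2A was above most short-transcript genes in both experiments, with 5.58% of them at or above its value for PMA and 9.67% for ConA. For MT1E the value with ConA (-0.24) lay above the short-transcript median and for MTF1 (0.67) above the long-transcript median. The part of transcript length in these results was not tested.

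Sums of markers of other cells, which could also carry metallothionein transcripts, differed between some groups. For PMA, 9 of 10 T and NK cell markers were listed, TRAC not, with a summed level of 886 to 985 normalized counts in the controls and 1199 to 1816 with PMA. The ConA table listed 2 of them, with neither CD3E nor PTPRC, at sums of 34.1 to 52 in the controls and 39.5 to 48.1 with ConA. Of the 6 monocyte markers, CD14 and AIF1 were listed in neither table, and the sum of the others was 5267 to 5747 in the controls and 7513 to 7706 with PMA, and 6174 to 6601 and 17546 to 20766 in the ConA experiment. CD68, a lysosomal glycoprotein gene also expressed outside monocytes, gave most of that sum. None of the 5 erythroid markers was listed. Kidney proximal tubule markers, 3 of 5 listed, summed to 124 to 158 in the controls and 420 to 443 with PMA, mostly CUBN. The 2 listed of 4 endothelial markers summed to 64.4 to 84.9 in the controls and 44.3 to 52.2 with PMA. The part of other cells in the MT2A values was not tested.

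The genes whose pattern was most like that of MT2A over the 12 libraries were BCL2A1 (Pearson r = 0.996), FOSL1 (0.996) and PLAUR (0.996), out of 14660 genes compared on log2 values from which the mean of the own controls was taken. BCL2A1 encodes an anti-apoptotic BCL2 relative, FOSL1 an AP-1 subunit of the FOS family and PLAUR the urokinase receptor. The log2 fold changes of FOSL1 were 1.81 (PMA) and 0.89 (ConA), and those of PLAUR 1.40 and 0.85, close to the 1.56 and 0.82 of MT2A, whereas BCL2A1 was at 4.56 and 2.48. MT1X came at rank 264 on this list (r = 0.964), MT1E at rank 3228 (0.622) and MTF1 at rank 4611 (0.403). Closest to MT1X were ANKRD1 (0.988), HSPA6 (0.983) and AEN (0.982), and closest to MTF1 were POLR1B (0.993), LINC01000 (0.989) and KDM2A (0.988). These correlations describe 12 libraries in 4 groups, which share their depth factors and group means.

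The MTF-1 target SLC30A1, which exports zinc from the cytosol, had opposite signs with the 2 treatments, in the reverse of the MT1E pattern. With PMA it was at 1991, 1740 and 1742 normalized counts against 3409, 3254 and 3886 in the controls. With ConA it was at 5126, 5489 and 5433 against 3732, 3408 and 3644. The log2 fold change was -0.94 with PMA (standard error 0.07, adjusted p = 4.48e-07 from limma) and 0.57 with ConA (standard error 0.06, adjusted p = 5.43e-07 from limma), neither past the 2-fold threshold, and their difference of -1.52 was called. Its transcript is long, at 5474 bases, and its deviations correlated with those of MTF1 at r = 0.895 and with the short-minus-long difference at -0.862 over the 12 libraries.

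The other zinc transporters are given beside the 8.65% of all genes called with PMA and 8.71% with ConA, and the 66.7% and 68.2% with an unadjusted p under 0.05. Of the 7 zinc exporter genes of the SLC30 family tested, 0 were called by limma with either treatment, and 4 with PMA and 5 with ConA had an unadjusted p under 0.05. Their medians were -0.08 for PMA and 0.23 for ConA on the log2 scale, and with quantile normalization SLC30A1 was called with PMA (-1.05). Of the 11 zinc importer genes of the SLC39 family tested, 0 were called by limma with PMA, where 9 had an unadjusted p under 0.05, and 1 fell with ConA, with medians of -0.16 and -0.10. This was SLC39A10, a plasma membrane importer that MTF-1 represses, at 2477 ± 217 normalized counts in the ConA controls and 1203 ± 20.3 with ConA (log2 fold change -1.04, adjusted p = 9.1e-09 from limma). Its log2 fold change with PMA was -0.53, and its call with ConA was lost without the fourth control (-0.97) and without a variance trend (adjusted p = 0.000127 from limma). Of the 8 MTF-1 targets other than metallothioneins, 0 were called with PMA by limma, where 5 had an unadjusted p under 0.05, and with ConA 2 fell, SLC39A10 and NDRG1, a stress-response gene (log2 fold change -1.39), with list medians of -0.13 and -0.49. The list mixes genes that MTF-1 switches on, such as SLC30A1, with SLC39A10, which it represses. Its median is therefore no measure of MTF-1 activity.

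Copper, which metallothioneins also bind, and iron are handled by other genes, of which 0 and 1 were called with PMA and 3 and 2 with ConA. Over all genes tested, 8.65% were called with PMA and 8.71% with ConA. Of 16 copper genes tested with either treatment, 0 were called by limma with PMA, where 10 had an unadjusted p under 0.05, beside 66.7% of all genes. CP, which encodes the plasma ferroxidase ceruloplasmin, had the largest log2 fold change there at -2.07 (adjusted p = 0.127), with 1 control library at 304 and the other controls at 5.57 and 10.1 normalized counts. With ConA the copper transporter gene SLC31A2 (1.66) and the ferroxidase gene HEPH (2.56) rose and the metalloreductase gene STEAP3 (-1.30) fell. With PMA, where none of them was called, SLC31A2 was at 0.53 and HEPH at -1.30. STEAP3 was lower with PMA as well (-0.75, adjusted p = 1.46e-08 from limma). Of 15 iron genes, SLC40A1, which encodes the iron exporter ferroportin, fell with PMA (-1.48), a call that 8 of the alternatives tried did not keep, with log2 fold changes of -1.54 to -1.21 and adjusted p from 0.00012 to 0.000372 in limma, over the limit of 0.0001. With ConA the mitochondrial carrier gene SLC25A28 rose (1.44) and ACO1, the gene of iron regulatory protein 1, fell (-1.20), while their log2 fold changes with PMA were -0.03 and -0.02. The list medians were -0.10 and -0.08 for copper and -0.0021 and 0.10 for iron, with PMA and ConA.

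Genes of the heat shock and glutathione lists, which are often read beside metallothioneins, were called with PMA. Of all genes tested, 8.65% were called with PMA and 8.71% with ConA. Of 14 heat shock genes tested with PMA 5 rose, with a median of 0.39, led by the inducible HSP70 genes HSPA1A (from 4840 ± 28.7 to 22732 ± 998 normalized counts, SD, n = 3, log2 fold change 2.23), HSPA1B (1.54) and HSPA6 (1.48). HSPA1A and HSPA1B are near-identical copies, so how reads were split between them is uncertain. Other genes of this list were lower with PMA and not called. These were BAG3 (-0.42, adjusted p = 5.93e-05 from limma), DNAJB1 (-0.19), HSPB1 (-0.32) and CRYAB (-1.26, adjusted p = 0.104 from limma). With ConA 0 of 13 were called by limma and 11 had an unadjusted p under 0.05 (68.2% of all genes did), with a median of -0.06, and HSPA6 was just under the threshold at 1.00 (adjusted p = 2.87e-05 from limma). It passed the threshold with a pseudocount of 0.1 (1.01) and without the fourth control (1.06). HSPA1A (0.91) and HSPA1B (0.82) were also higher with ConA, under the threshold (adjusted p = 8.69e-09 and 1.19e-08 from limma). DNAJB1 was lower with ConA (-0.50). Of 14 glutathione and thioredoxin genes, TXNRD1 (1.38), GCLM (1.03) and HMOX1 (1.02), which encode thioredoxin reductase, a subunit of glutamate-cysteine ligase and heme oxygenase, rose with PMA, and SLC7A11, the cystine transporter gene, fell with ConA (-1.37). SLC7A11 was also lower with PMA, under the threshold (-0.80, adjusted p = 3.3e-08 from limma). Its difference between the treatments, 0.57, was not called. The calls of GCLM and HMOX1 lay next to the threshold and were lost under 4 and 2 alternatives, GCLM without the second control (0.99) or the first PMA library (0.99) and HMOX1 without the third PMA library (0.99). The list medians were 0.32 and -0.16.

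Among 11 glucocorticoid response genes, 3 rose and 2 fell with each treatment, and the list medians were -0.20 with PMA and -0.30 with ConA. Calls took in 8.65% of all genes with PMA and 8.71% with ConA. TSC22D3, a standard glucocorticoid target, fell from 2347 ± 40 to 347 ± 57 normalized counts with PMA (log2 fold change -2.77) and from 4281 ± 181 to 1851 ± 104 with ConA (-1.21). CRISPLD2 fell with PMA (-2.94). FKBP5, another gene of this list, rose with ConA and was called there, opposite in sign to TSC22D3. With PMA FKBP5 was lower and not called. ERRFI1, a feedback inhibitor gene of EGF receptor signalling, rose with PMA (1.35) and fell with ConA (-1.09). NR3C2, the mineralocorticoid receptor gene, rose with PMA (2.13) and ConA (1.34), and HSD11B1, the gene of a cortisol-forming enzyme, rose with PMA (1.77) and ConA (1.69). Of 16 genes of factors described at metallothionein promoters, 0 were called with PMA by limma and 13 had an unadjusted p under 0.05, beside 66.7% of all genes. FOS had the largest log2 fold change with PMA at 0.81 (adjusted p = 7.83e-05 from limma). With ConA 2 rose, STAT5A (1.56) and FOS (1.53). JUN, which encodes the other AP-1 partner, was higher with PMA (0.34, adjusted p = 5.1e-06 from limma). With ConA it was lower, from 10811 ± 599 to 5702 ± 707 normalized counts (log2 fold change -0.93, adjusted p = 1.09e-07 from limma). Neither change of JUN was called. The medians were 0.11 with PMA and 0.23 with ConA.

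**Figure D5:**
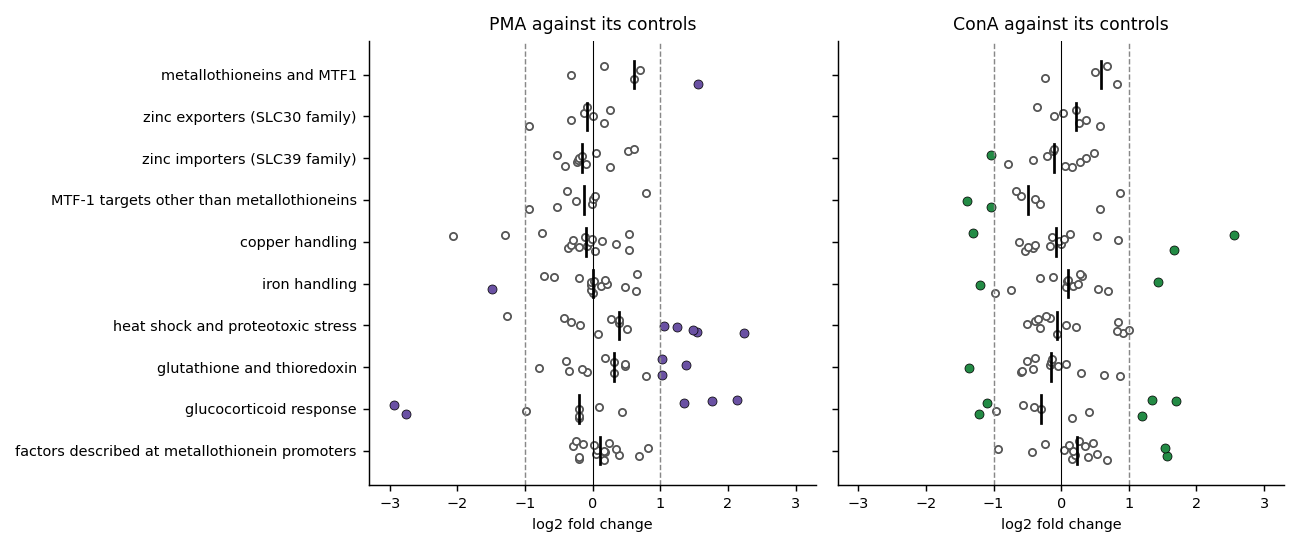
Log2 fold changes against the controls of the same table for the metallothioneins with MTF1 and for lists of zinc, copper, iron, stress, glucocorticoid and promoter-factor genes, 1 point per gene tested, with a bar at the list median and dashed lines at the 2-fold threshold. Filled points were called. The heat shock list has 5 filled points with PMA and none with ConA, and the zinc exporters have none with either treatment.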

How the data were processed

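RNA was sequenced by a service company from polyadenylated RNA. The authors deposited signal values, 1 per gene symbol and library: normalized counts, scaled by 1 factor per library in each table and not by gene length. Bowtie2, STAR, Partek and DESeq2 and the builds hg19 and mm10 are named in the submitters' processing notes without a role. How reads shared between gene copies were assigned is not given in the sources used here. Each library's factor was inferred from values of 5 to 60, of which 79.29% to 81.86% became whole (within 0.01), so reads could not be recovered for all genes and no count test was run.

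Within each table, limma 3.58.1 (R 4.3.3; variance trend) compared treated with control libraries on log2(value + 1), on which low genes' changes are understated, for genes with a mean of at least 10 over 6 libraries. The difference between treatments was fitted over all 12 libraries with 4 group means, for genes in both tables with a mean of at least 10 over the 12. All p-values are two-sided and, unless called exact, Benjamini-Hochberg adjusted over all genes tested. Exact permutation tests (scipy 1.17.1) compared sums and ratios, of which 7 were computed per table, and those p-values were left unadjusted, since none could pass 0.05. The fit was tested on simulated data. No genome of the files' build was used; lengths and shared 50-base stretches came from GENCODE release 29, and promoters from RefSeq. Likeness, depth and figures were computed with pandas 2.3.3, numpy 2.4.6 and matplotlib 3.10.9 under Python 3.11.15.

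The genes, lists and tests were chosen with earlier results of these data known. One gene of the list of promoter factors is not reported here and was left out of that list. Genes named are the 6 chosen, SLC30A1, called zinc transporters, at most 3 called genes per further list and treatment with the largest change (or the largest 1 where none was called), and the 3 most alike to MT2A, MT1X and MTF1. CD68, CUBN, ERRFI1, FKBP5, JUN, BAG3, DNAJB1, HSPB1 and CRYAB, and the marker genes named as not listed, were named after their values were seen. Alternatives were other pseudocounts, filters, scalings, variance models, a looser adjusted p, 1 fit of all libraries, the replicate number as a block, and leaving out each library.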

Additional observations from a re-analysis of the deposited data

Results flagged for a closer look

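MT1E was flagged because every PMA library lay above its controls and every ConA library below its own. Non-overlap alone was common, at 67.9% of all genes tested with PMA and 69.3% with ConA. This rule was applied to the chosen genes only, and the share of all genes with opposite signs was not computed. Without the lowest ConA library the value with ConA was -0.12 (adjusted p = 0.249 from limma). The log2 fold change with PMA exceeded that with ConA by 0.85 (log2; adjusted p = 5.37e-05 from limma, 3 libraries per group), and it was under the 2-fold threshold.

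For the following genes the changes with PMA and ConA differed by more than 2-fold with an adjusted p of at most 0.0001 in limma's test of the difference itself. The difference, PMA minus ConA on the log2 scale, was -1.52 for SLC30A1 and 1.14 for NDRG1 among the MTF-1 targets. It was -3.86 for HEPH and -1.13 for SLC31A2 among the copper genes, and -2.03 for SLC40A1, -1.46 for SLC25A28 and 1.18 for ACO1 among the iron genes. Among the stress genes it was 1.32 for HSPA1A, 1.54 for TXNRD1 and 1.15 for HMOX1. It was -2.37 for CRISPLD2 and -1.56 for TSC22D3 among the glucocorticoid response genes, and 2.07 for BCL2A1. Further genes of the lists were called in this difference and were named after their values were seen: ERRFI1 (2.44) and FKBP5 (-1.40) of the glucocorticoid response, JUN (1.27) of the promoter factors, HSPH1 (1.03) of the heat shock genes, SCO2 (-1.13) of the copper genes and HFE (-1.03) of the iron genes. Of all 15030 genes tested, 10.6% were called in this difference. Treatment and experiment cannot be told apart in it, since each treatment has its own controls.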

How the results depend on the processing

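With 3 libraries a group and MT1F at 4 to 18 estimated reads, small differences at MT1F could not be shown. MT2A with PMA was called under each of 16 alternatives (log2 fold change 1.37 to 1.59, adjusted p 4.54e-14 to 1.07e-05), and with ConA it stayed uncalled under each of 15 (0.76 to 0.94). MT1X, MT1E and MTF1 kept their signs and stayed uncalled in both experiments and in the difference. The difference between treatments at MT2A ran from 0.43 (quantile normalization) to 0.78. MT1F with PMA went from -0.33 to 0.078 with quantile normalization. Without a variance trend 867 genes were called with PMA (1310 with the trend) and 662 with ConA (1318), and rises made up 76.4% of the ConA calls instead of 66.9%. At an adjusted p of at most 0.05 rises made up 38.7% of the PMA calls instead of 46.6%, and 54.2% without a variance trend.

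The labels number the PMA libraries and their controls alike. Same-numbered libraries did not deviate together (r = -0.06, 0.10 and 0.10, none over 0.1), and not every library correlated best with its own number, so the numbers were not taken as pairs. With the replicate block 1264 genes were called with PMA, MT2A among them (log2 fold change 1.56). No paired analysis was possible for ConA because its libraries share no numbers with their controls.

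Signs of small changes turned for SLC25A28 with PMA (0.053 with quantile normalization, and -0.11 to 0.049 with 1 library left out, above 0 without the second control or the third PMA library), POLR1B with PMA (-0.091, quantile normalization), ACO1 with PMA (-0.064 to 0.0051 with 1 library left out, above 0 without the first control), CP with ConA (-0.031 to 1.27 with 1 library left out, below 0 without the second ConA library), and, in the difference with quantile normalization, HSD11B1 (-0.032) and AEN (-0.062). SLC40A1 with PMA lost its call under 8 of the alternatives, GCLM with PMA under 4, HMOX1 with PMA under 2 and SLC39A10 with ConA under 2. Without a variance trend SLC7A11 (-1.37), NR3C2 (1.34) and BCL2A1 (2.48) with ConA kept their fold changes but had an adjusted p of 0.00018, 0.000503 and 0.000154, over the limit of 0.0001, and with quantile normalization the differences of NDRG1 (0.99) and SLC31A2 (-0.93) were just under 2-fold. SLC30A1 with PMA was called with quantile normalization (-1.05) and without the first PMA library (-1.01), and HEPH with PMA was called with 1 fit of all libraries. The causes were not tested. Of the values recomputed, 1634 stayed on the same side, 21 lost a call, 8 gained one and 9 turned their sign.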
